A study of Rattus norvegicus with 32 samples.

Results

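The regional difference between the hypothalamus and the brainstem was examined in adrenalectomized rats that had breathed filtered air. Its size rests on 8 of the 32 libraries of the series, chosen by their labels alone: 4 hypothalamus libraries and 4 brainstem libraries, numbered 65 to 68 in each tissue. All rats were Wistar Kyoto, an inbred strain, 13 weeks old. These rats had undergone total bilateral adrenalectomy (ADREX), the removal of both adrenal glands, and spent 4 hours in filtered air before the tissue was frozen. Sham-operated rats in air, and ADREX rats exposed for 4 hours to ozone at 0.8 ppm, gave 4 libraries per tissue each. They were used to ask whether the regional difference depended on the operation or on the exposure. All 32 libraries, those of sham-operated rats in the same ozone included, also set the filter on low values and the estimate of spread. The labels give neither sex nor any hormone or salt replacement. Nothing states that the libraries of a group came from separate animals, so the p-values measure only the spread between libraries. That spread is the spread within groups, pooled over all 8 groups of the series.

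The hypothalamus holds neurosecretory and peptide neurons that govern water balance, feeding, sleep, reproduction and the pituitary, and it develops from the forebrain. The brainstem holds the noradrenaline and serotonin neurons that project through the whole brain, glycine neurons, cranial motor neurons and long myelinated tracts, and its hindbrain part is patterned by Hox genes. Corticosterone from the adrenal cortex acts on both regions through glucocorticoid and mineralocorticoid receptors and restrains Crh and Avp in the hypothalamus. Adrenalectomy removes that hormone.

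The sequences just upstream of 6 genes that the results below turn on are shown first, because they mark the contrast at its extremes: Avp, Oxt and Hcrt encode peptides of hypothalamic neurons, and Dbh, Slc6a5 and Tph2 define noradrenaline, glycine and serotonin neurons. Each is the 250 bases before the annotated gene start, from RefSeq on assembly GRCr8, written 5′ to 3′ along the gene. The counts themselves were made on rn6. The windows lie at chr3:138248523-138248772 on the minus strand for Avp, chr3:138235504-138235753 on the plus strand for Oxt, chr10:86191525-86191774 on the minus strand for Hcrt, chr3:30886078-30886327 on the plus strand for Dbh, chr1:108781303-108781552 on the plus strand for Slc6a5 and chr7:52675640-52675889 on the minus strand for Tph2. Capitals mark CACGTG, the E-box bound by clock proteins, in Avp, and TGACC or its reverse complement GGTCA, the half-site of nuclear receptors, in Oxt. In the other 4 windows capitals mark ATTA or its reverse complement TAAT, the core letters of homeodomain sites.
Avp: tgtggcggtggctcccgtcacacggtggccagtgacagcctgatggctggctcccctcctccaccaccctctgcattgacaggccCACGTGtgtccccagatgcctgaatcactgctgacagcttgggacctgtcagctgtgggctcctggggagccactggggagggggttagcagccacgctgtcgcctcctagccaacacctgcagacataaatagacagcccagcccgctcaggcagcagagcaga
Oxt: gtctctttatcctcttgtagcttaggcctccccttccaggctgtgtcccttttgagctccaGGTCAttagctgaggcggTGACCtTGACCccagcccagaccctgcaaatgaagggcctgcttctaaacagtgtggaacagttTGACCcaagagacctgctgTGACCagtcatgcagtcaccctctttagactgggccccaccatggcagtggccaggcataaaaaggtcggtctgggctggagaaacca
Hcrt: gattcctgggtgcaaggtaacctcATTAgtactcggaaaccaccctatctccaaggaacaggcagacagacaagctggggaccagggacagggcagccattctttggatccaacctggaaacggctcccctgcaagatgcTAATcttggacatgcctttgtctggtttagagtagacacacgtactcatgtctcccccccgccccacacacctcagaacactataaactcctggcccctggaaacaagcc
Dbh: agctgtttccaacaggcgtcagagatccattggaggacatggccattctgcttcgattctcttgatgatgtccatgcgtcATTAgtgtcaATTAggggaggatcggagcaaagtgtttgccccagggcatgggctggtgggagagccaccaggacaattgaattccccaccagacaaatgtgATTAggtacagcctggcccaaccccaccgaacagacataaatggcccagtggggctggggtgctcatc
Slc6a5: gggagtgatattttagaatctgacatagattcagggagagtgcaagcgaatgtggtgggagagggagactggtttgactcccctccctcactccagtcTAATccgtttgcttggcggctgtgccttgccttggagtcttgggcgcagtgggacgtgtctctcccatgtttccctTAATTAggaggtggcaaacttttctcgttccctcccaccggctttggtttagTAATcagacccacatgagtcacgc
Tph2: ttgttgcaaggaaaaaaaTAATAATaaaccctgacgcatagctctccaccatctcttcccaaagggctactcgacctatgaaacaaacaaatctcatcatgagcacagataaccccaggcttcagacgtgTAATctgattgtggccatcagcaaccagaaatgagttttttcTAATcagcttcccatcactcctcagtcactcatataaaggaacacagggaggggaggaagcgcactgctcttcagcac
Both strands were searched, and overlapping matches were counted separately. CACGTG stood in 5.59% of all 33469 windows of this length, TGACC in 35.4% and ATTA in 57%. Among the 10189 windows of tested genes the shares were 7.98%, 32.8% and 39.4%. TGACC matched 5 times in Oxt and CACGTG 1 time in Avp. ATTA matched 2 times in Hcrt, 3 times in Dbh, 4 times each in Slc6a5 and Tph2, and 1 time, unmarked, in Oxt. The motif marked in each window was chosen, 1 per gene. Of the 15 genes with the largest difference towards hypothalamus, 11 had a window, and 7 of these held ATTA, 5 TGACC and 1 CACGTG. Of the 15 genes with the largest difference towards brainstem, 9 had a window, and 7 of these held ATTA, 2 TGACC and 1 CACGTG. These matches describe letters and not bound sites. Avp and Oxt are neighbours on this assembly, on opposite strands, with no other coding gene between their starts.

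The 4 hypothalamus libraries held 7465652 to 9112462 reads and the 4 brainstem libraries 7333615 to 9824517. Values are the deposited normalized counts, given in the order of libraries 65, 66, 67 and 68 of each tissue. Each tissue carried the markers its label calls for, as the peptide, transmitter and Hox genes below show, but transcripts of neighbouring and foreign tissue varied between libraries. Transcripts of 22 liver genes summed to 4198 RPM (counts scaled to the same library total) in hypothalamus 68 and to 52.0 to 145 in the other hypothalamus libraries, against 27.2 to 955 in brainstem. Ttr, the choroid plexus transthyretin, had 99.1, 87.3, 5258 and 361 in hypothalamus, against 117, 11.6, 86.4 and 1660 in brainstem. Hypothalamus 67 and brainstem 68 stood high, and the 18 choroid plexus markers summed to 2796 RPM in hypothalamus 67. Slc6a3, the dopamine transporter, had 20.6, 286, 69.5 and 225 in hypothalamus, against 15.9, 10.8, 7.95 and 50.9 in brainstem, so that hypothalamus 66 and 68 stood high. Gabra6, a granule cell receptor subunit of cerebellum, reached 196 and 266 in brainstem 66 and 68 but 59.1 and 53.4 in brainstem 65 and 67. The part of these libraries in the differences was not tested. A difference in bulk tissue can come from the number of cells of a type or from the RNA per cell, and these cannot be told apart here.

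Of 14533 genes with a mean of 10 or more, 3859 (26.6%) differed between hypothalamus and brainstem of ADREX rats at an adjusted p under 0.05 in limma, a linear model on log2(value + 1). In hypothalamus 2019 genes (13.9%) were higher and 1840 (12.7%) lower. A log2 difference of at least 1 in size was reached by 1119 of the called genes (7.7%), 697 of the higher genes (4.8%) and 422 of the lower (2.9%). At the extremes, 12 called genes had a difference of 5 or more and 15 of −5 or less. All log2 values below are differences, hypothalamus minus brainstem, with their standard error, and they understate the change of genes near 0. Counts over gene lists are to be read against the shares of all genes called, 13.9% higher and 12.7% lower. A gene near 0 in 1 tissue passed the filter through the other, so its difference was built in. Counts and medians of lists include such genes. The median over all genes was −0.0020 and the median standard error 0.17. The values of the 4 hypothalamus and the 4 brainstem libraries did not overlap for 4125 genes (28.4%).

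Neuropeptide genes were mostly higher in hypothalamus. Of 30 neuropeptide precursor genes tested, 17 were higher in hypothalamus and 7 lower, against 13.9% and 12.7% of all genes, and their median log2 difference was 0.69. Some of them, such as Avp and Oxt, passed the filter through hypothalamus, so that part of this was built in. Without the filter, the 51 precursors with counts summed to 2612 to 3124 RPM in hypothalamus and 1306 to 1561 in brainstem. Pmch, which encodes melanin-concentrating hormone of the lateral hypothalamus, had the largest fitted log2 difference towards hypothalamus. It had 2682, 3213, 2429 and 2437 in hypothalamus, against 33, 4.14, 72.7 and 3.25 in brainstem, a log2 difference of 7.45 ± 0.72, adjusted p = 1.9e-09. Every hypothalamus library exceeded every brainstem library, while brainstem itself split, with 65 and 67 above 66 and 68. Parpbp, a DNA repair gene whose annotated span overlaps Pmch on GRCr8, had 252, 351, 311 and 280.3 in hypothalamus, against 1.14, 3.31, 15.9 and 4.33 in brainstem (5.79 ± 0.45). The labels do not say whether counting used strand, so reads of Parpbp and Pmch cannot be told apart.

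Avp, the vasopressin precursor made by magnocellular neurons and by the parvocellular neurons that drive the stress response, had 394, 373, 349 and 274 in hypothalamus, against 0, 0, 4.54 and 4.33 in brainstem. Its log2 difference was 7.21 ± 0.59, adjusted p = 6.68e-11. Oxt, the oxytocin precursor, had 327, 353, 333 and 166 in hypothalamus, against 6.82, 0, 2.27 and 0 in brainstem, with a log2 difference of 6.98 ± 0.55, adjusted p = 2.82e-11. Hypothalamus 68 was lowest for both genes, and brainstem held at most 6.82 normalized counts of either. Hcrt, the orexin precursor of arousal neurons in the lateral hypothalamus, had 516, 819.6, 662 and 493 in hypothalamus, against 44.4, 17.4, 30.7 and 22.7 in brainstem (4.44 ± 0.30, adjusted p = 1.24e-12), and the groups lay far apart.

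**Figure D1:**
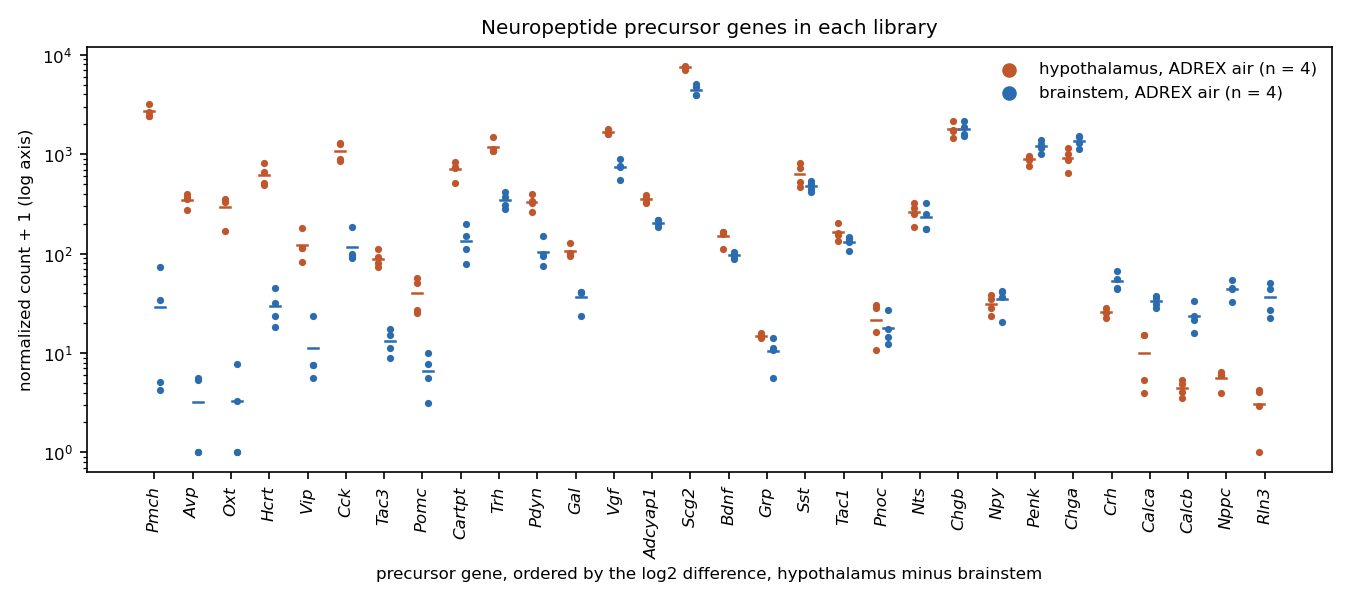
Normalized counts plus 1, on a log axis, of the 30 tested neuropeptide precursor genes in each library, hypothalamus of ADREX rats in air at left and brainstem at right for each gene, with bars at the means. Genes run from the largest difference towards hypothalamus (Pmch, 7.45) to the largest towards brainstem (Rln3, −3.68), and the points of the 2 tissues separate at both ends and mix around Npy and Nts.

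Vip, a peptide of the suprachiasmatic clock among other neurons, had 112, 112, 178 and 81.5 in hypothalamus, against 22.8, 6.62, 4.54 and 6.49 in brainstem (3.65 ± 0.38, adjusted p = 8.43e-09). Brainstem 65 stood above the other brainstem libraries but below all of hypothalamus. Cck, the cholecystokinin precursor, had 889, 1262, 1280 and 860.4 in hypothalamus, against 184, 91.9, 98.9 and 89.8 in brainstem (3.24 ± 0.20, adjusted p = 1.36e-13). Cartpt, an appetite-suppressing peptide, had 739, 721, 512 and 841 in hypothalamus, against 150.1, 109, 199 and 77.9 in brainstem (2.44 ± 0.32, adjusted p = 4.63e-07). Trh, the thyrotropin-releasing hormone precursor, had 1064, 1068, 1121 and 1497 in hypothalamus, against 279, 366, 417 and 309.5 in brainstem (1.79 ± 0.27, adjusted p = 4.42e-06). All 3 were separated between the tissues in every library. Gal, the galanin precursor, averaged 105 ± 14.5 in hypothalamus and 35.2 ± 8.35 in brainstem (SD, n = 4 each), a log2 difference of 1.57 ± 0.31, adjusted p = 0.000206. Other members of the list, picked after their values were seen to show its range, were Tac3 at 2.78, Pdyn at 1.68 and Adcyap1 at 0.78, each called.

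Pomc, the precursor of alpha-MSH in the arcuate nucleus and of corticotropin in the pituitary, had 24.5, 56.2, 49.4 and 26.1 in hypothalamus, against 4.55, 9.11, 6.82 and 2.16 in brainstem (2.62 ± 0.52, adjusted p = 0.000206). Hypothalamus 66 and 67 stood above 65 and 68, and no brainstem library reached the lowest of them. Sst, the somatostatin precursor, had 526, 808, 728 and 467 in hypothalamus, against 445, 497, 418 and 536 in brainstem. Its small difference of 0.39 ± 0.14, adjusted p = 0.0422 came with overlapping groups, and 5 of the 8 fits that left out 1 library put its adjusted p above 0.05, up to 0.205 without hypothalamus 66. Npy, the orexigenic neuropeptide Y, had 22.6, 37.1, 34.3 and 27.2 in hypothalamus, against 35.3, 40.6, 19.3 and 40 in brainstem, with mixed groups and a log2 difference of −0.12 (95% interval −0.80 to 0.55, adjusted p = 0.849). Agrp, which marks arcuate hunger neurons, was below the filter with 0.981, 14, 4.19 and 4.35 in hypothalamus, against 1.14, 4.14, 0 and 0 in brainstem. Npvf, the RFamide precursor of the dorsomedial hypothalamus, also fell below it. With 8.83, 20.1, 19.2 and 14.1 in hypothalamus and 0 reads in all 4 brainstem libraries, its mean was at least 4.96-fold higher, taking 3 reads per library as the floor.

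Crh ran the other way. This precursor of corticotropin-releasing hormone, made in the paraventricular nucleus and also in brainstem sites such as Barrington's nucleus, had 27.5, 24.1, 25.1 and 21.7 in hypothalamus, against 44.4, 54.6, 65.9 and 43.3 in brainstem. Every hypothalamus library was below every brainstem library, with a log2 difference of −1.03 ± 0.28, adjusted p = 0.00609. Crhbp, its binding protein, was also lower in hypothalamus (−1.23), as was its main receptor Crhr1 with 44.2, 36.1, 47.7 and 32.6 in hypothalamus, against 95.5, 87, 101 and 84.4 in brainstem (−1.19 ± 0.15, adjusted p = 3.39e-07). Crhr2, the second receptor, was higher, with 43.2, 29.1, 52.7 and 38 in hypothalamus, against 10.2, 7.45, 13.6 and 20.6 in brainstem (1.64 ± 0.25, adjusted p = 6.14e-06). The other precursors that were lower in hypothalamus with a difference of at least 1 in size were Calca (−1.98) and Calcb (−2.38) for the calcitonin gene-related peptides, Nppc (−2.98) for C-type natriuretic peptide and Rln3 (−3.68) for relaxin-3 of the nucleus incertus, all 4 named after their values were seen. Gcg, which encodes the glucagon-like peptides of the solitary nucleus, had 12.5, 15.7, 20.4 and 17.3 in brainstem and 0 reads in hypothalamus, where it was at least 5.63-fold lower, with the same floor.

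Among 48 peptide and hormone receptor genes tested, 20 were higher in hypothalamus and 4 lower, with a median of 0.52. Calcr, the calcitonin and amylin receptor, had 556, 597, 509 and 599.7 in hypothalamus, against 107, 119, 103 and 112 in brainstem (2.35 ± 0.15, adjusted p = 5.07e-13). Npy1r, a neuropeptide Y receptor, had 448, 401, 363 and 498 in hypothalamus, against 119, 118, 98.9 and 119 in brainstem (1.89 ± 0.20, adjusted p = 8.23e-09). Vipr2, the VIP receptor of the clock, had 168, 126, 138 and 102 in hypothalamus, against 39.8, 30.6, 37.5 and 43.3 in brainstem (1.78 ± 0.16, adjusted p = 6.28e-10). All 3 were separated in every library. Mc3r, a melanocortin receptor picked after its values were seen, averaged 30.4 ± 2.57 in hypothalamus and 2.65 ± 1.55 in brainstem (SD, n = 4 each), against no call for Mc4r, which had 14.7, 24.1, 14.2 and 36.9 in hypothalamus, against 19.3, 32.3, 45.5 and 36.8 in brainstem and an adjusted p of 0.13. The difference of Mc4r passed without hypothalamus 68 (−0.86, adjusted p = 0.025) and without brainstem 65 (−0.83, adjusted p = 0.0356). Gfral, the GDF15 receptor of the area postrema, was the extreme on the brainstem side with 0, 1, 0 and 1.09 in hypothalamus, against 46.6, 37.3, 37.5 and 27.1 in brainstem. On summed reads the brainstem level was 72.2 times that of hypothalamus (95% interval 19.6 to 602, counting error only). Avpr1a, a vasopressin receptor, had 19.6, 20.1, 25.1 and 54.3 in hypothalamus, against 28.4, 19.9, 38.6 and 29.2 in brainstem, with overlapping groups and a log2 difference of −0.06 (95% interval −0.68 to 0.56).

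Transcription factors that pattern the 2 regions in development were still transcribed in these adult tissues, each mostly on its own side. Of 24 hypothalamic factors tested, 17 were higher in hypothalamus and 2 lower, with a median of 2.05. Some of them, such as Fezf1 and Sim1, passed the filter through hypothalamus, so that part of this was built in. Without the filter, the 41 factors with counts summed to 712 to 766.5 RPM in hypothalamus and 257 to 306 in brainstem. Sim1, needed for paraventricular and supraoptic neurons, had 181, 101, 97.1 and 127 in hypothalamus, against 1.14, 0, 2.27 and 1.08 in brainstem (5.98 ± 0.40, adjusted p = 7.75e-13). Nkx2-1, the ventral hypothalamic factor, had 81.5, 100.3, 93.8 and 75 in hypothalamus, against 1.14, 0, 4.54 and 0 in brainstem (5.57 ± 0.46, adjusted p = 8.7e-11). Dlx1, of forebrain GABA neurons, had 184, 238, 199 and 209 in hypothalamus, against 2.27, 0.828, 9.09 and 3.25 in brainstem (5.70 ± 0.39, adjusted p = 1.51e-12). Fezf1, of the ventromedial nucleus, had 134, 130.4, 116 and 156 in hypothalamus, against 0, 0, 3.41 and 0 in brainstem, which is 3 reads in all. Its level on summed reads was 182 times that of brainstem (95% interval 62.1 to 887). Otp, another paraventricular factor, was low, with 19.6, 20.1, 12.6 and 14.1 in hypothalamus, against 0, 1.66, 7.95 and 9.74 in brainstem (2.11 ± 0.62, adjusted p = 0.0106), and its adjusted p rose to 0.0789 without brainstem 65. Six6, Dlx5 and Lhx8 had 0 reads in all 4 brainstem libraries and were at least 6.04-fold, 4.18-fold and 7.90-fold higher in hypothalamus.

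Of 27 hindbrain and midbrain factors tested, 18 were lower in hypothalamus and 3 higher, with a median of −1.12. Some of them, such as Pou4f2 and Evx1, passed the filter through brainstem. Without the filter, the 45 factors with counts summed to 254 to 275 RPM in hypothalamus and 649 to 742 in brainstem. Meis2 had 232, 215, 254 and 294 in hypothalamus, against 1043, 1098, 1236 and 977 in brainstem (−2.13 ± 0.16, adjusted p = 1.35e-11). Pbx3 had 554, 615, 458 and 682 in hypothalamus, against 1884, 2285, 2001 and 2171 in brainstem (−1.86 ± 0.15, adjusted p = 8.7e-11). Both are cofactors of Hox proteins. Pou4f2 had 0 reads in hypothalamus and 93.3, 47.2, 60.2 and 33.5 in brainstem, where it is known from the superior colliculus, so that hypothalamus was at least 19.98-fold lower. Evx1, of spinal and hindbrain interneurons, had 1.96, 0, 0 and 0 in hypothalamus, against 20.5, 42.2, 36.4 and 40 in brainstem. The 3 that were higher in hypothalamus were Gbx2 (3.08), Nr4a2 (1.43) and Lmx1a (1.14), of which Gbx2 is known from the thalamus and the other 2 from midbrain dopamine neurons. 

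All 11 Hox genes that passed the filter were lower in hypothalamus, with a median of −6.13, or −5.48 with the 3 genes at 0 reads set to their bound. They passed the filter through brainstem, so that a difference was built in, and all 29 Hox genes of the table are therefore described by reads. Together they held 26 reads in the 4 hypothalamus libraries and 4950 in the 4 brainstem libraries. No Hox gene had more than 7 reads over hypothalamus, and 16 had none. Detection in brainstem followed the paralogue number, which gives a gene's position in its cluster. Of 15 genes of paralogues 1 to 5, 13 were detected in all 4 brainstem libraries. Of 7 genes of paralogues 6 to 8 this was so for 4, and of 7 genes of paralogues 9 to 13 for 0, with 7 reads in all.

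Hoxb5 had 3.93, 1, 0 and 0 in hypothalamus, against 622, 326, 383 and 381 in brainstem, which is 5 reads against 1630. Hoxa5 had 0.981, 0, 0 and 1.09 in hypothalamus, against 158, 179, 200 and 137 in brainstem. Hoxc5 had 159, 147, 168 and 96.3 in brainstem and 0 reads in hypothalamus, at least 48.7-fold lower. Hoxc4 had 284, 90.3, 83 and 67.1 in brainstem, with library 65 far above the others, and 0 reads in hypothalamus, at least 44.8-fold lower, or at least 27.3-fold without brainstem 65. Hoxb3, likewise at 0 reads in hypothalamus, was at least 14.7-fold lower, while Hoxa2 and Hoxd3 held 1 and 2 reads over hypothalamus, against 337 and 384 over brainstem. Hoxa4, by contrast, had 0 reads in all 8 libraries.

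**Figure D2:**
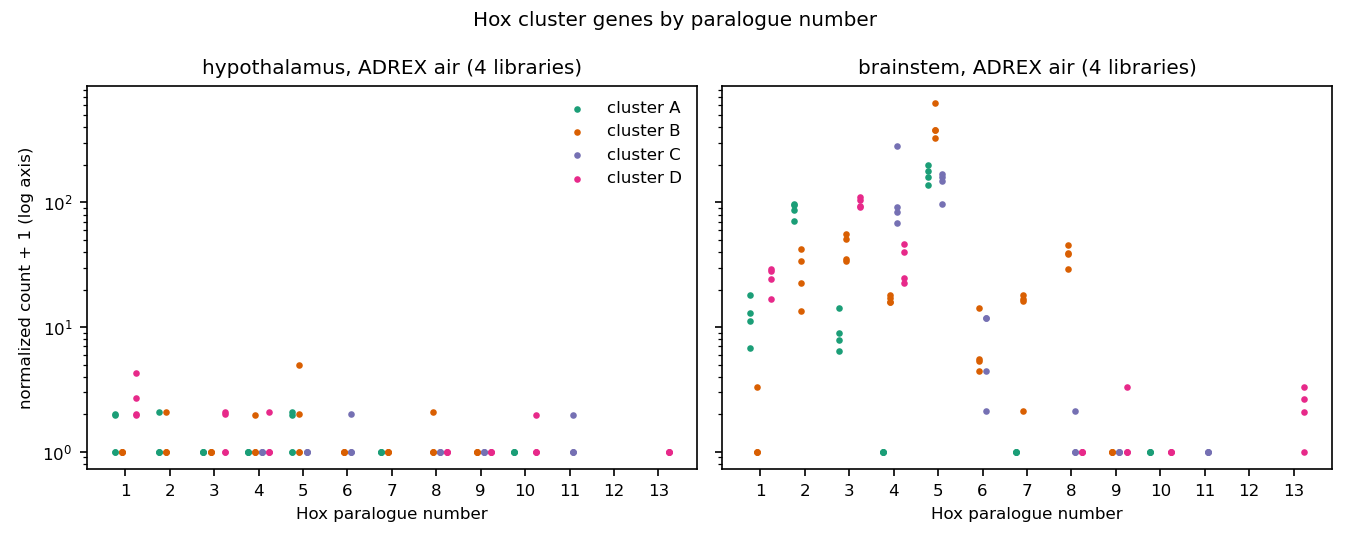
Normalized counts plus 1, on a log axis, of the 29 Hox genes by paralogue number, with hypothalamus at left and brainstem at right, 1 point per library (ADREX rats in air) and colours for the 4 clusters. Hypothalamus stays below 5 throughout, and in brainstem values peak at paralogue 5 (Hoxb5, 326 to 622) and are near 0 from paralogue 9 on.

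The amine transmitters split the 2 regions by gene. Hdc, the histamine-making enzyme of the tuberomammillary nucleus, had 177, 227, 223 and 182 in hypothalamus, against 3.41, 0.828, 3.41 and 3.25 in brainstem (5.85 ± 0.34, adjusted p = 8.34e-14). Hrh3, the histamine autoreceptor, had 282, 295, 292 and 270.5 in hypothalamus, against 73.9, 66.2, 110.2 and 81.2 in brainstem (1.79 ± 0.13, adjusted p = 3.02e-12). Noradrenaline genes lay in brainstem. Dbh, which turns dopamine into noradrenaline, had 0.981, 1, 1.67 and 0 in hypothalamus, against 186, 152, 152 and 112 in brainstem (−6.37 ± 0.47, adjusted p = 6.2e-12). Slc6a2, the noradrenaline transporter, had 0, 0, 0.837 and 2.17 in hypothalamus, against 172, 177, 152 and 146 in brainstem, which is 3 reads in hypothalamus and on summed reads a brainstem level 212 times that of hypothalamus (95% interval 72.2 to 1031). Serotonin genes did the same. Tph2, the neuronal serotonin-making enzyme, had 13.7, 8.03, 11.7 and 25 in hypothalamus, against 655, 614, 576 and 606 in brainstem (−5.40 ± 0.37, adjusted p = 1.73e-12). Slc6a4, the serotonin transporter, had 4.91, 3.01, 2.51 and 5.43 in hypothalamus, against 431, 412, 268 and 557 in brainstem (−6.39 ± 0.36, adjusted p = 2.91e-14). Brainstem 67 was lowest for Slc6a4, and no library of either tissue came near the other tissue.

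Of the genes that act in several amine systems, some passed the threshold in each direction. Maob, which breaks amines down, had 474, 534, 476 and 548 in hypothalamus, against 419.7, 291, 301 and 303 in brainstem (0.64 ± 0.11, adjusted p = 3.8e-05). Qdpr, which recycles the cofactor of the synthetic enzymes, had 5868, 6344, 5309 and 5518 in hypothalamus, against 11840, 8529, 9729 and 10180 in brainstem (−0.80 ± 0.16, adjusted p = 0.00023). The groups did not overlap for either. Th, the first enzyme of catecholamine synthesis, had 179, 443, 198 and 262 in hypothalamus, against 160.4, 126, 156 and 155 in brainstem, and was just past the threshold (0.77 ± 0.29, adjusted p = 0.0489). Hypothalamus 66 and 68, the libraries high in Slc6a3, were also highest in Th, and without hypothalamus 66 the difference was 0.50 with an adjusted p of 0.232. Of the 8 fits that left out 1 library, 6 left Th above the threshold, with adjusted p between 0.0676 and 0.232. Ddc had 117, 179, 136 and 176 in hypothalamus, against 169.5, 154, 127 and 136 in brainstem, with a log2 difference of 0.03 (95% interval −0.29 to 0.36). Slc18a2, the vesicular monoamine transporter, had 248, 301, 253 and 375 in hypothalamus, against 378, 419, 361 and 378 in brainstem (−0.40, 95% interval −0.89 to 0.09). Slc6a3 itself did not pass in limma (2.52 ± 1.09, adjusted p = 0.0917), while on recovered reads it passed in edgeR (2.81, adjusted p = 0.0364) and in DESeq2 (2.81, adjusted p = 0.0381). In limma it also passed without hypothalamus 65 (3.25, adjusted p = 0.0386). In the catecholamine list as a whole 3 of 13 genes were higher in hypothalamus and 3 lower, and in the serotonin and histamine list 4 of 16 were higher and 5 lower.

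Of 9 adrenergic and dopamine receptor genes tested, 4 were higher in hypothalamus and 1 was lower, against 13.9% and 12.7% of all genes. Their median was 0.52, with 5 members above 0 and 4 below. Adra2b, an alpha-2 adrenoceptor also known from thalamus, had 151, 131, 141 and 175 in hypothalamus, against 4.55, 5.8, 5.68 and 2.16 in brainstem (4.82 ± 0.43, adjusted p = 3.44e-10). Adra1b had 199, 197, 186 and 194 in hypothalamus, against 62.6, 70.4, 65.9 and 75.8 in brainstem (1.49 ± 0.15, adjusted p = 3.42e-09). Drd1, the dopamine D1 receptor, had 92.2, 84.3, 96.3 and 129 in hypothalamus, against 38.7, 20.7, 29.5 and 21.6 in brainstem (1.85 ± 0.27, adjusted p = 2.67e-06). The lower member was Adra1d with 19.6, 35.1, 38.5 and 36.9 in hypothalamus, against 64.8, 61.3, 81.8 and 64.9 in brainstem (−1.08 ± 0.24, adjusted p = 0.000716).

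**Figure D3:**
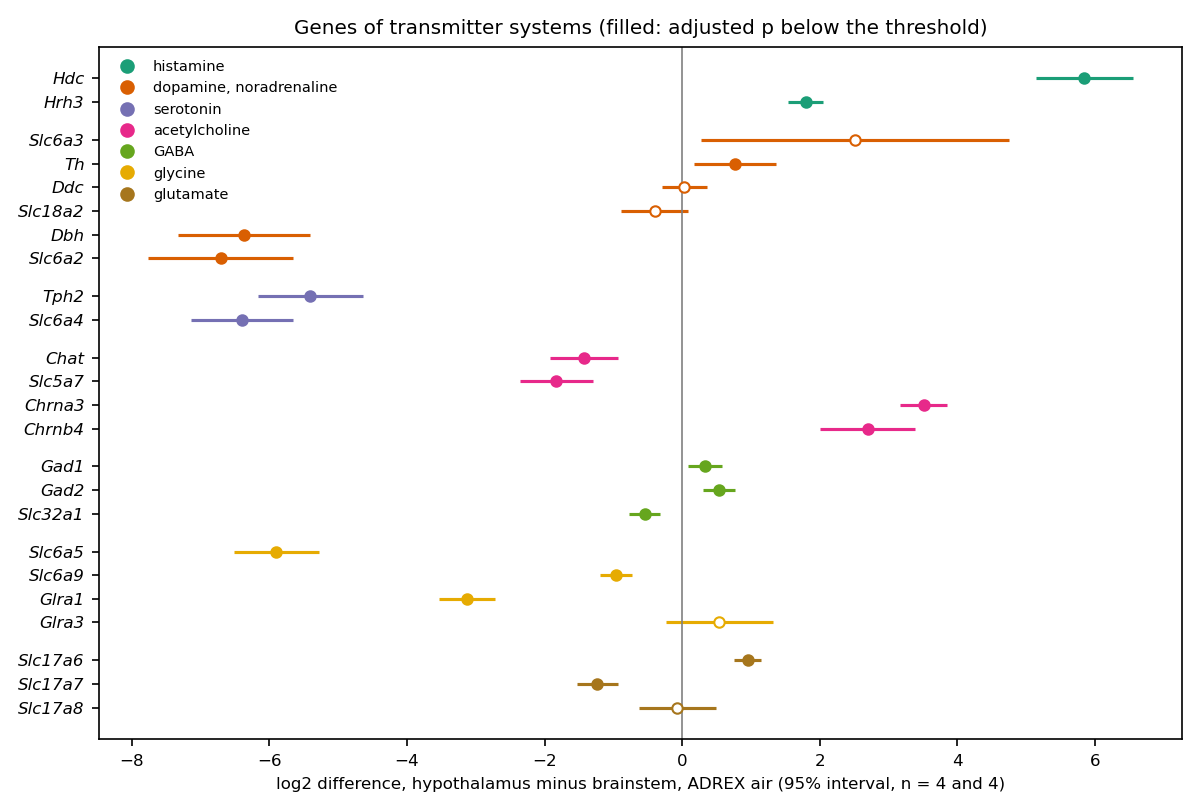
Log2 difference, hypothalamus minus brainstem of ADREX rats in air, with its 95% interval from 4 libraries per tissue, for genes of transmitter systems, filled where the adjusted p was under 0.05. Hdc lies far to the hypothalamus side, Dbh, Slc6a2, Tph2, Slc6a4 and Slc6a5 far to the brainstem side, and Ddc, Slc18a2, Glra3 and Slc17a8 have intervals that include 0.

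The main genes of glycine neurons were lower in hypothalamus. Slc6a5, the transporter that loads glycine neurons, had 87.3, 50.2, 40.2 and 95.6 in hypothalamus, against 3474, 4251, 4290 and 3587 in brainstem, a mean 57.1 times higher in brainstem and a log2 difference of −5.90 ± 0.30, adjusted p = 3.52e-15. Glra1, the adult glycine receptor subunit, had 134, 81.2, 82.9 and 129 in hypothalamus, against 799.6, 1104, 1092 and 741 in brainstem (−3.13 ± 0.20, adjusted p = 3.4e-13). Neither gene overlapped between tissues. In the list of 29 glycine and GABA genes the counts nonetheless leaned to hypothalamus, 17 higher and 4 lower (median 0.54). Most of those 17 are GABA receptor subunits. Gabra4, a subunit also abundant in thalamus, had 1280, 1006, 1330 and 1270 in hypothalamus, against 135, 124, 157 and 112 in brainstem (3.20 ± 0.15, adjusted p = 1.12e-15). Gabrd, picked after its values were seen, averaged 243 ± 18.4 in hypothalamus and 29.7 ± 13.2 in brainstem (SD, n = 4 each), and Gabbr2, of the metabotropic receptor, had 5081, 4303, 4274 and 4831 in hypothalamus, against 1672, 1908, 2236 and 1646 in brainstem (1.32 ± 0.10, adjusted p = 2.09e-11). Gad1, a GABA-making enzyme, had 2041, 2493, 2216 and 2145 in hypothalamus, against 2066, 1682, 1558 and 1796 in brainstem. Its small difference of 0.33 ± 0.12, adjusted p = 0.0411 came with overlapping groups, and 6 of the 8 fits that left out 1 library put its adjusted p above 0.05, between 0.0556 and 0.14.

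The 2 main vesicular glutamate transporters differed in opposite directions. Slc17a6, used by subcortical neurons, had 5479, 4877, 5190 and 5568 in hypothalamus, against 2971, 2695, 2968 and 2296 in brainstem (0.96 ± 0.10, adjusted p = 4.68e-09). Slc17a7 had 445, 298, 362 and 401 in hypothalamus, against 886, 898, 925 and 805 in brainstem (−1.23 ± 0.15, adjusted p = 7.94e-08). Of 35 glutamate genes tested, 18 were higher in hypothalamus and 8 lower (median 0.41). Grm2 at 2.01 ± 0.14 and Gria1 at 1.198 ± 0.13 were among the higher, both glutamate receptor genes without overlap.

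Genes that make and recycle acetylcholine were lower in hypothalamus, while its receptors were split. Chat, which makes acetylcholine in motor and other cholinergic neurons, had 86.4, 79.2, 71.2 and 81.5 in hypothalamus, against 208, 205, 245 and 204 in brainstem (−1.43 ± 0.24, adjusted p = 2.6e-05). Slc5a7, the choline transporter, averaged 204 ± 64.1 in hypothalamus and 702 ± 70.3 in brainstem (SD, n = 4 each). Chrna3 had 269, 263, 249.5 and 209 in hypothalamus, against 22.8, 17.4, 28.4 and 16.2 in brainstem (3.51 ± 0.17, adjusted p = 1.12e-15). Chrnb4 had 108, 91.3, 99.6 and 39.1 in hypothalamus, against 18.2, 9.94, 13.6 and 6.49 in brainstem (2.70 ± 0.34, adjusted p = 2.46e-07). Chrnb3 had 98.1, 88.3, 100.5 and 76 in hypothalamus, against 9.1, 15.7, 20.4 and 17.3 in brainstem (2.51 ± 0.32, adjusted p = 3.14e-07). Chrna5 and Chrna2, picked after their values were seen, were lower in hypothalamus, at −1.18 ± 0.31 and −0.86 ± 0.32. Chrna3 and Chrnb4 are best known from the medial habenula, which borders the thalamus. Gpr151, an orphan receptor also known from habenula, had 124, 117, 106 and 94.5 in hypothalamus, against 0, 2.48, 5.68 and 5.41 in brainstem (4.99 ± 0.51, adjusted p = 5.73e-09). In the whole list 8 of 18 genes were higher in hypothalamus and 5 lower.

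Genes of large axons and fast firing formed a uniform brainstem set. Of 26 tested, 25 were lower in hypothalamus and 0 higher, with a median of −1.69, against 12.7% lower among all genes. Nefl, a neurofilament subunit, had 5220, 4971, 4755 and 4751 in hypothalamus, against 16470, 15220, 17190 and 15310 in brainstem (−1.70 ± 0.08, adjusted p = 1.66e-15). Nefh, the heavy subunit, had 498, 568, 594 and 399 in hypothalamus, against 3046, 3396, 3457 and 3676 in brainstem (−2.73 ± 0.23, adjusted p = 1.18e-10). Scn4b, a sodium channel subunit of resurgent currents, had 582, 507, 652 and 589 in hypothalamus, against 4545, 4946, 4879 and 3985 in brainstem (−2.98 ± 0.14, adjusted p = 9.79e-16), and the synaptic proteins Vamp1 and Syt2 had differences of −2.22 ± 0.11 and −2.64 ± 0.15. Spp1, which encodes osteopontin, found in large brainstem neurons and in reactive microglia, had 22.6, 29.1, 31.8 and 28.2 in hypothalamus, against 754, 915, 999.9 and 933 in brainstem (−4.96 ± 0.30, adjusted p = 1.57e-13). The single member that did not pass was Tnr, at −0.25.

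Myelin genes followed. Of 28 oligodendrocyte and myelin genes, 27 were lower in hypothalamus and 0 higher, with a median of −1.11, and Tspan2 (−0.34) did not pass. Mbp, myelin basic protein, had 36840, 41540, 38770 and 39710 in hypothalamus, against 116100, 109500, 106300 and 111600 in brainstem (−1.50 ± 0.16, adjusted p = 7.21e-09). Cnp had 7649, 8023, 8111 and 8451 in hypothalamus, against 17850, 17630, 21390 and 17330 in brainstem (−1.198 ± 0.09, adjusted p = 6.98e-12). The 28 genes together took 22100 to 24340 RPM in hypothalamus and 53900 to 60180 in brainstem, with no overlap. Of 10 precursor markers 5 were lower, led by Enpp6 of newly forming oligodendrocytes with 123, 80.2, 98.8 and 103 in hypothalamus, against 305, 421, 443 and 410.1 in brainstem (−1.95 ± 0.16, adjusted p = 4.77e-11). The precursor receptor gene Pdgfra was at 0.02 and did not pass.

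Other glia differed less. Of 21 astrocyte markers 3 were higher in hypothalamus and 6 lower. Gfap, the fibrous astrocyte filament, had 2092, 2271, 3029 and 2154 in hypothalamus, against 7747, 6705, 8160 and 6791 in brainstem (−1.63 ± 0.16, adjusted p = 2.01e-09). Aqp4, the water channel of astrocyte endfeet, had 9159, 7255, 8789 and 8655 in hypothalamus, against 15620, 16220, 14970 and 14500 in brainstem (−0.86 ± 0.13, adjusted p = 6.61e-06). Of 16 microglia markers 1 was called, Itgam, with 144, 125, 136 and 176 in hypothalamus, against 250.2, 246, 245 and 204 in brainstem (−0.71 ± 0.12, adjusted p = 1.99e-05), and the list median was −0.01. Of 21 endothelial and mural markers 7 were lower and 0 higher, none by as much as 1 in size. Tanycyte and ependymal markers, of the cells that line the ventricles, went to hypothalamus, with 10 of 16 higher and 0 lower (median 1.40). Gpr50, a tanycyte receptor, had 38.3, 53.2, 48.6 and 41.3 in hypothalamus, against 11.4, 8.28, 5.68 and 5.41 in brainstem (2.46 ± 0.28, adjusted p = 5.11e-08). Ak7, of motile cilia, had 96.2, 134, 124 and 79.3 in hypothalamus, against 20.5, 16.6, 20.4 and 32.5 in brainstem (2.23 ± 0.22, adjusted p = 3.6e-09). The 6 other members did not pass, among them Vim at 0.21, Nes at −0.57 and Pltp at 0.04.

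**Figure D4:**
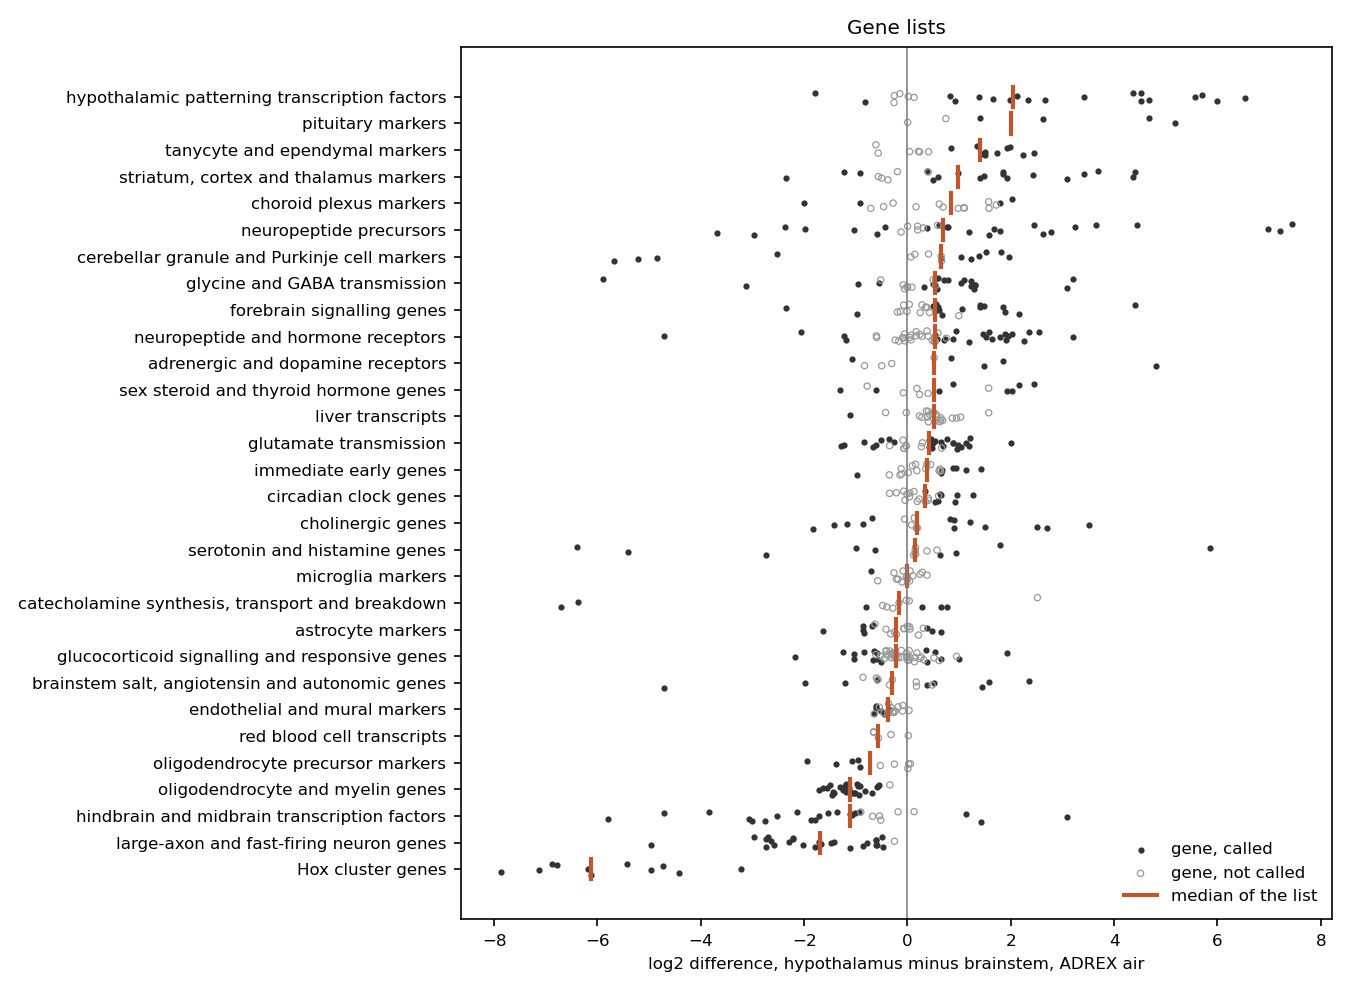
Log2 difference, hypothalamus minus brainstem of ADREX rats in air, for each tested gene of the 30 lists, filled where called, with the list median as a bar, sorted with the list highest in hypothalamus on top. Medians are over the members that passed the filter on low values, such as 2.05 for hypothalamic patterning factors and −6.13 for the 11 Hox genes, which passed it through brainstem alone, and large-axon and myelin genes lie almost wholly below 0.

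Receptors for steroid and thyroid hormones were mapped with the adrenal source removed. Nr3c1, the glucocorticoid receptor, had 1399, 1154, 1134 and 1622 in hypothalamus, against 1067, 1305, 1200 and 1067 in brainstem. The groups overlapped, and the log2 difference was 0.18 (95% interval −0.13 to 0.50, adjusted p = 0.446). Nr3c2, the mineralocorticoid receptor, had 107, 62.2, 108 and 119.5 in hypothalamus, against 148, 162, 141 and 132 in brainstem (−0.59 ± 0.17, adjusted p = 0.011), and was lower in hypothalamus in every library, though without hypothalamus 66 the difference was −0.38 with an adjusted p of 0.0843. Hsd11b1, which regenerates corticosterone inside cells, had 98.1, 103, 117 and 143 in hypothalamus, against 150.1, 114, 183 and 120.1 in brainstem (−0.28, adjusted p = 0.303). Esr1, the oestrogen receptor alpha, had 91.3, 102, 96.3 and 140.1 in hypothalamus, against 20.5, 33.1, 19.3 and 20.6 in brainstem (2.17 ± 0.27, adjusted p = 2.35e-07). Irs4, a hypothalamic insulin receptor substrate, had 1165, 878, 892 and 1096 in hypothalamus, against 194, 168, 208 and 166 in brainstem (2.44 ± 0.15, adjusted p = 1.68e-13). Srd5a1, which reduces steroids, had 235, 206, 200.1 and 273 in hypothalamus, against 628, 489, 586 and 557 in brainstem (−1.31 ± 0.14, adjusted p = 1.16e-08). Of the 14 sex steroid and thyroid genes 6 were higher and 2 lower.

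Glucocorticoid-responsive genes showed no common regional direction. Of 51 tested, 6 were higher in hypothalamus, 10 lower and 35 did not pass, with a median of −0.22. The called share, 31.4%, was near the 26.6% of all genes. Fkbp5, a chaperone gene induced by glucocorticoids in most cells, had 231, 247, 235 and 189 in hypothalamus, against 242, 193, 262 and 202 in brainstem, with a log2 difference of 0.01 (95% interval −0.28 to 0.29). Fam107a had 1974, 1704, 1859 and 1831 in hypothalamus, against 425, 479.5, 507 and 524 in brainstem (1.93 ± 0.12, adjusted p = 1.68e-13). Pla2g3 had 8.83, 15.1, 20.1 and 9.78 in hypothalamus, against 51.2, 61.3, 85.2 and 53 in brainstem (−2.18 ± 0.25, adjusted p = 5.09e-08), the widest of the list on either side. Gpd1, known from myelinating cells, had 196, 216, 428 and 264 in hypothalamus, against 621, 539, 856 and 549.8 in brainstem (−1.26 ± 0.17, adjusted p = 1.31e-06), with hypothalamus 67 the highest of its group.

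Clock genes were called in 1 direction. Of 22, 8 were higher in hypothalamus and 0 lower, with a median of 0.34. Npas2 had 249, 231, 295 and 239 in hypothalamus, against 94.4, 104, 111 and 110.4 in brainstem (1.26 ± 0.14, adjusted p = 5.03e-08). Arntl, which encodes BMAL1, had 208, 221, 238 and 229 in hypothalamus, against 131, 137, 182 and 148 in brainstem (0.59 ± 0.13, adjusted p = 0.00106). The labels give no hour of collection, and a difference of phase and a difference of level cannot be told apart from a single time. Of 21 immediate early genes, 6 were higher and 1 lower. Nr4a2, which is also a dopamine neuron factor, had 172, 176, 135 and 162 in hypothalamus, against 46.6, 71.2, 65.9 and 55.2 in brainstem (1.43 ± 0.25, adjusted p = 4.68e-05). Fosb had 66.7, 50.2, 68.7 and 64.1 in hypothalamus, against 35.3, 16.6, 30.7 and 32.5 in brainstem (1.14 ± 0.24, adjusted p = 0.000559), and the lower member was Arc with overlapping groups, 19.6, 26.1, 38.5 and 26.1 in hypothalamus, against 71.7, 53, 34.1 and 62.8 in brainstem (−0.97 ± 0.24, adjusted p = 0.00206). Of 17 brainstem salt, angiotensin and autonomic genes 5 were higher in hypothalamus and 4 lower, and besides Gfral these included Gpr4, a proton sensor of chemoreception, which had 62.8, 66.2, 64.5 and 57.6 in hypothalamus, against 17.1, 29, 31.8 and 16.2 in brainstem (1.44 ± 0.27, adjusted p = 0.00012).

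Markers of neighbouring tissue moved with the contrast. Of 23 striatum, cortex and thalamus markers, 15 were higher in hypothalamus and 3 lower (median 0.97), and the list summed to 2436 to 2683 RPM in hypothalamus and 1920 to 2192 in brainstem. Prkcd, abundant in thalamus, had 6076, 4946, 6259 and 6074 in hypothalamus, against 395, 392, 656 and 398 in brainstem (3.69 ± 0.19, adjusted p = 2.47e-15). Tcf7l2, a thalamic and habenular factor, had 2155, 2039, 1921 and 2222 in hypothalamus, against 519, 115, 150 and 160.2 in brainstem (3.41 ± 0.34, adjusted p = 3.42e-09). Lef1 had 508, 458, 404 and 480.2 in hypothalamus, against 76.2, 80.3, 96.6 and 86.6 in brainstem (2.43 ± 0.23, adjusted p = 1.14e-09). Brainstem 65 stood above the other brainstem libraries for Tcf7l2. The part of adjoining thalamus or telencephalon in the differences above was not tested. Of 28 forebrain signalling genes 15 were higher in hypothalamus and 2 lower, with Camk2a at 2.16 ± 0.18 and Shank3 at 1.90 ± 0.12 on the hypothalamic side and Neurod6, of excitatory neurons, at −2.35 ± 0.25 on the other.

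Cerebellar and pituitary markers also differed. Gabra6 had 1.96, 0, 0 and 7.61 in hypothalamus, against 59.1, 196, 53.4 and 266 in brainstem, and Fat2, another granule cell gene, had 6.87, 2.01, 5.86 and 6.52 in hypothalamus, against 76.2, 294, 101 and 362 in brainstem. Both were highest in brainstem 66 and 68. Cbln3 had 0, 0, 0 and 7.61 in hypothalamus, against 58, 64.6, 34.1 and 118 in brainstem and belongs to the same cells. Their log2 differences were −5.67, −4.85 and −5.21. Of the 16 cerebellar markers 7 were higher in hypothalamus and 4 lower, and Calb1 and Zic1, which hypothalamic neurons also express, were among the higher at 1.24 and 1.38. Cga, the glycoprotein hormone subunit of pituitary, had 85.4, 207, 124 and 89.1 in hypothalamus, against 5.69, 1.66, 5.68 and 0 in brainstem (5.17 ± 0.90, adjusted p = 4.45e-05), while Prl and Gh1, the defining hormones of the anterior lobe, had 0 reads in all 8 libraries. The 14 pituitary markers summed to 206 to 338 RPM in hypothalamus and 192 to 259 in brainstem. Of 16 choroid plexus markers 2 were higher and 2 lower, a share near that of all genes (26.6%). One of the lower, Tmem72, had 21.6, 13, 289.7 and 6.52 in hypothalamus, against 100.1, 112, 95.5 and 161 in brainstem (−2.002, adjusted p = 0.0425), with hypothalamus 67 above every brainstem library. Its difference was −3.11 without hypothalamus 67 (adjusted p = 0.000152), and it missed the threshold in each of the other 7 fits that left out 1 library, with adjusted p between 0.0616 and 0.204. In edgeR on recovered reads it was −0.47 (adjusted p = 0.706). Of 23 liver transcripts 0 were higher and 1 was lower, Tf (−1.11), which oligodendrocytes also make.

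The same contrast in sham-operated rats in air, on separate libraries in the same fit, called 4509 genes (31.0%), 2319 higher (16%) and 2190 lower (15.1%). With a size of at least 1 it called 1271 (8.75%), 722 higher (4.97%) and 549 lower (3.78%). Of the genes called higher in ADREX hypothalamus 1677 were also called higher in sham hypothalamus, which is 83.1% of the ADREX calls and 72.3% of the sham calls. For lower genes it was 1496, or 81.3% and 68.3%. Both contrasts used the same filter and, for each gene, the same estimate of spread, which favours shared calls. No gene was called in opposite directions, and 3830 of the 3859 ADREX calls had the same sign in sham rats. Over all genes the log2 differences of the 2 operations correlated at Pearson r = 0.84, and over the 1119 genes called with a size of at least 1 in ADREX rats at 0.98. These are correlations across genes, which are not independent replicates.

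**Figure D5:**
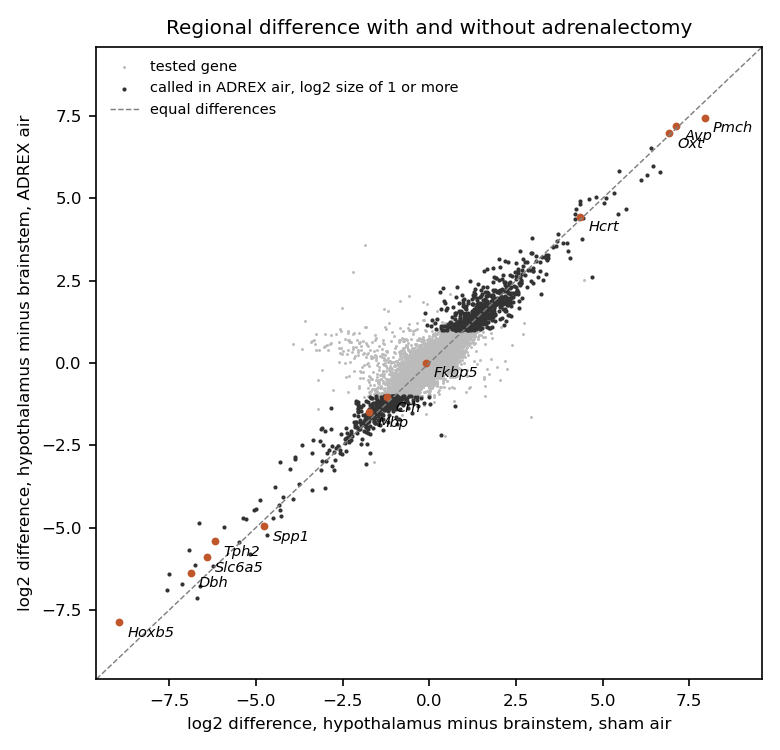
Log2 difference, hypothalamus minus brainstem, of each tested gene in ADREX rats (vertical) against sham rats (horizontal), both in air, 4 libraries per group, with genes called in ADREX rats at a size of at least 1 in dark grey. Named genes lie along the line of equal differences from Hoxb5 to Pmch, and the pale grey band above the line at left includes liver transcripts, whose median was 0.51 in ADREX and −2.05 in sham rats. Liver transcripts varied widely between libraries of a group. In sham rats in air, 22 liver genes summed to 33.7, 4487, 30.9 and 25.4 RPM in hypothalamus, against 145, 1476, 904 and 394 in brainstem.

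Whether the regional difference depended on the operation was tested as the difference of the 2 differences, ADREX minus sham. No gene (0.0%) was called in limma, with 386 genes (2.66%) at an unadjusted p under 0.05. On the recovered reads edgeR called 0 genes and DESeq2 called 1, SNORD88, a small nucleolar RNA. In air, SNORD88 had 0 reads in all 4 hypothalamus libraries of sham rats and in 3 of the 4 brainstem libraries of each operation. The median size of this interaction was 0.15 and its median standard error 0.24. For Avp it was 0.08 (95% interval −1.63 to 1.79), for Oxt 0.06 (95% interval −1.53 to 1.65) and for Crh 0.18 (95% interval −0.64 to 0.997). The interval for Avp therefore holds changes of more than 1 in either direction. It was 0.11 (95% interval −0.30 to 0.52) for Fkbp5, 0.52 (95% interval −0.36 to 1.39) for Slc6a5 and 0.23 (95% interval −0.22 to 0.68) for Mbp. Over the 51 glucocorticoid-responsive genes the median interaction was 0.06, against −0.0029 over all genes, and 1 gene, Fam107a, had an unadjusted p under 0.05. Its difference was 1.93 in ADREX and 1.37 in sham rats, an interaction of 0.56 (95% interval 0.22 to 0.90). For Pomc the difference was 2.62 in ADREX and 4.70 in sham rats, an interaction of −2.08 (95% interval −3.57 to −0.59) that did not pass (adjusted p = 1). The 5 smallest p belonged to Hmg1l1 (−1.25), Fam129a (1.46), Ky (−0.82), Rn50_20_0041.1 (−2.05) and Net1 (0.53), none of which passed, at an adjusted p of 1.

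Set against ADREX rats in ozone, which leaves the adrenal state alike and changes the exposure, the regional difference again showed no call in limma (0.0%), with 725 genes (4.99%) at an unadjusted p under 0.05. Both edgeR and DESeq2 called 0 genes. The 5 smallest p, all at an adjusted p of 0.774 and not passing, belonged to Hist1h2bk (1.45), Dusp16 (0.76), Metrnl (−1.02), Map3k15 (1.85) and Yod1 (1.204). This comparison shares the ADREX air libraries with the regional difference itself. Brainstem library 81 of ADREX rats in ozone, with 12391173 reads, had counts unlike the others of its group. Between pairs of that group, the chi-square over genes per degree of freedom was 60.53 to 67.23 with library 81, against 6.409 to 7.232 without it. Library 81 also enters the pooled spread. Leaving out any 1 library of the comparison gave 0 calls. The interaction, ADREX air minus ADREX ozone, was −0.45 (95% interval −2.16 to 1.26) for Avp, −0.04 (95% interval −0.86 to 0.78) for Crh and −0.23 (95% interval −1.10 to 0.64) for Slc6a5.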

How the data were processed

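RNA of 32 rat brain samples was sequenced as mRNA libraries on a NextSeq 500, per the labels' protocols. The authors deposited a table of normalized counts for 22587 genes, a signal scaled per library. The submitters' processing notes name Partek, DESeq2 and rn6. Alignment, annotation and the handling of strand and near-identical copies were not given in the sources used here, which leaves values of closely related or overlapping genes uncertain. In each library 100% of the values were whole multiples of 1 step (tolerance 0.001), which gave read totals of 6436458 to 12391173. Intervals and floors (3 reads per library) made from reads cover counting error only.

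Values entered the model as log2(value + 1), and genes with a mean of 10 or more over the 32 libraries were fitted with limma 3.58.1 in R 4.3.3 (trended prior variance, 8 group means, no replicate block) with Benjamini-Hochberg adjustment. A call is an adjusted p under 0.05. Recovered reads were fitted with edgeR 4.0.16 and DESeq2 1.42.0 as alternatives, beside other scalings, filters and pseudocounts, sample weights, a replicate block and leaving out each library.

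Members, the 30 gene lists and tests were chosen with earlier results of these data known, so counts over lists are descriptions. Genes were named by rule: the 15 largest differences each way (mean of 50 or more, no overlap), in each list the called members with the smallest p (4 at most), a panel of 56 genes, and the 5 smallest p of each interaction. For the tissue difference 146 named genes were tested and 135 called. Any further gene was named after its values were seen, to show the range of its list or a value near 0. RefSeq matched 15865 of the symbols. Some genes of the lists are not reported here.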

Additional observations from a re-analysis of the deposited data

Results flagged for a closer look

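Of 278 groups of 4 values, made of the named genes in each tissue of ADREX rats in air, 29 held a library whose gap to its nearest neighbour as a share of the group's range exceeded Dixon's 95% critical value for 4 values. Chance gives about 1 in 20 such groups where values are normal and groups independent. Some flagged groups held reads in a single library, as for Fezf1 in brainstem, and genes of the same library can vary together. The 29 are therefore not a test against that rate. Brainstem 65 held 6, hypothalamus 68 held 5 and hypothalamus 66 held 1.

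In hypothalamus 68 the values were 166.2 for Oxt, 1.09 for Hoxa2, 7.61 for Cbln3, 1497 for Trh and 54.3 for Avpr1a. In hypothalamus 67 they were 10320 for Enpp2, 289.7 for Tmem72 and 5258 for Ttr. Hypothalamus 66 had 4946 for Prkcd, below the others. Hypothalamus 65 had 1.96 for Evx1, 876.4 for Gria1 and 1893 for Camk2a.

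In brainstem 65 the values were 284.4 for Hoxc4, 184.3 for Cck, 419.7 for Maob, 182.0 for Foxp2, 518.7 for Tcf7l2 and 22.75 for Vip. Brainstem 66 had 0.828 for Hdc, 33.1 for Esr1 and 125.9 for Th. Brainstem 67 had 3.41 for Fezf1, 98.9 for Npy1r, 21390 for Cnp, 655.6 for Prkcd and 245.4 for Chat. Brainstem 68 had 204.5 for Itgam, 22.7 for Gal and 1660 for Ttr.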

How the results depend on the processing

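The count of genes called between hypothalamus and brainstem of ADREX rats, 3859, ranged from 3240 to 4639 over the alternatives, and from 3308 to 3657 when 1 library was left out. For sham rats, 4509 in limma, the ranges were 3780 to 6357 and 3866 to 4314. Both counts moved by less than 1.5 times. With a difference of at least 1 in size, 1119 genes were called for ADREX rats and 1271 for sham rats, and among the alternatives run only the filter at a mean of 50 moved these by over 1.5 times, to 683 and 773, since it tests fewer genes. Leaving out the libraries rich in liver transcripts, a choice made after seeing the data, gave 3565 and 4283 calls. On recovered reads edgeR called 3851 and 4493 genes, and DESeq2 called 3935 and 4588.

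Against sham rats, DESeq2 called 1 gene, which was higher (SNORD88). Against ozone, the fit with no filter called 1 gene, which was lower (AABR07010040.2, at 0 in all libraries except about 1 read in each hypothalamus library of ADREX rats in ozone). The cause was not tested.

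Among named genes, 4 with differences near 0 and no call turned sign. Avpr1a went to 0.0378 in edgeR and 0.0324 in DESeq2, and ran from −0.382 to 0.0921 without 1 library. Ddc went to −0.0164 with sample weights, to −0.0445 without the liver-rich libraries, and ran from −0.0514 to 0.151 without 1 library. Fkbp5 went to −0.0031 under quantile normalization and ran from −0.063 to 0.0887 without 1 library. Npy ran from −0.363 to 0.00475, the last without hypothalamus 65. Another 9 genes lost their call under at least 1 alternative, and 4 gained one.

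The tissues share replicate numbers, and the labels do not say whether a number marks an animal. The correlation of same-numbered deviations ran from −0.531 to 0.195 over the 4 ADREX air pairs, with 1 above 0.1, and from −0.531 to 0.612 over all 16 pairs, with 7 above 0.1. A sample correlated best with its own number in 1 of 4 and 4 of 16 pairs, so the numbers were not taken to pair the samples. With a replicate block 3521 genes were called for ADREX rats, 4118 for sham rats and 0 in either interaction.

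Each tissue has 4 libraries of 7333615 to 9824517 reads, so genes with a mean under 10 were not tested, and the median standard error of an interaction, 0.24, limits what could be seen between operations. No scaling moved the median of all genes by as much as 0.1.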

Other observations

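Among the largest differences was also a gene in none of the lists. Dct, dopachrome tautomerase of melanin synthesis, had 56.9, 86.3, 67.8 and 72.8 in hypothalamus, against 0, 3.31, 3.41 and 2.16 in brainstem (4.68 ± 0.56, adjusted p = 1.01e-07). Among list members not described above, Cyp19a1, the aromatase that makes oestrogen, was below the filter, with 8.83, 15.1, 19.2 and 16.3 in hypothalamus, against 2.27, 2.48, 3.41 and 0 in brainstem. Both were higher in every hypothalamus library than in any brainstem library. Pnmt, which makes adrenaline from noradrenaline, was near the floor in both tissues, with 1.96, 0, 0.837 and 0 in hypothalamus, against 0, 0, 3.41 and 2.16 in brainstem.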
